A study of Mus musculus with 5 samples.

Results

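The genes described here encode the constitutive proteasome: every protein-coding gene of the table whose mouse symbol begins with Psma, Psmb, Psmc or Psmd followed by a number, leaving out the interferon-inducible subunits Psmb8, Psmb9 and Psmb10. The rule used names alone and no measured value, and it found 36 genes among the 54100 in the table. They are 16 genes of the core particle (8 of the alpha family and 8 of the beta family) and 20 of the regulatory particle (6 ATPases and 14 non-ATPase genes). Psmd5, Psmd9 and Psmd10 carry subunit names but are known as assembly chaperones of the ATPase ring, and Psma8 and Psmb11 are known as testis and thymus forms.

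The study measured mRNA in B16F10, a mouse skin melanoma line, and compared ways of enriching cells with stem-cell properties as spheroids. It has 5 libraries, 1 per group, and each was made from 3 repeats that were pooled. The groups were dynamic suspension culture and conventional three-dimensional (3D) culture, both labelled wild type with no construct named, HIF-1α overexpression, HIF-1α knockdown, and shControl, also labelled wild type. The labels give no vector, hairpin sequence or clone, and no treatment. All 5 share a growth protocol in the labels, in which cells were shaken at 60 to 80 rpm in serum-free medium for 7 to 10 days, so the labels do not say how the conventional 3D culture differed in handling. The RNA was poly(A)-selected and made into strand-specific libraries.

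The proteasome degrades proteins that carry ubiquitin chains. Its core particle is a barrel of stacked rings: the outer alpha rings form the gate and the inner beta rings hold the proteolytic sites. The regulatory particle caps the barrel, binds ubiquitin chains, removes them, and unfolds and threads the substrate with a ring of ATPases, and the transcription factor NRF1, encoded by Nfe2l1, is known to raise the subunit genes together when proteasome activity is short.

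Hif1a, the gene targeted in the constructs, was at 390.5 CPM in dynamic suspension, 542 in conventional 3D, 384 in the library labelled overexpression, 95.1 in the library labelled knockdown and 61.3 in shControl, where CPM, the usual per-library scaling of counts to a fixed total, was taken after TMM (trimmed mean of M-values) normalization. The log2 ratio was 2.65 for labelled overexpression against shControl and 0.63 for labelled knockdown against shControl, with a 95% counting interval of 0.54 to 0.72. Hif1a mRNA was thus higher, not lower, in the library labelled knockdown, and the libraries are called by their labels for that reason. The library labelled overexpression lay close to dynamic suspension (log2 ratio against shControl 2.67) and below conventional 3D (3.14). Its Hif1a level was therefore not above those of the culture libraries. shControl, the lowest library for Hif1a, is the reference in most comparisons below. The sample descriptions tie the knockdown to the table column headed B16F10, which is only the name of the line, and the overexpression to B16F10Q, so every value of labelled knockdown depends on that link being right. By their pattern, the values of dynamic suspension, conventional 3D and shControl were taken as estimated counts, summing to 61014260, 61267892 and 59493240. Those of labelled overexpression and labelled knockdown were taken as plain counts, summing to 15393189 and 14803426. This split is inferred from the values and not from a label. In the comparisons of a labelled library with shControl, the kind of value and the group cannot be told apart. All 7 melanocyte markers were at 1 CPM or more in every library, and their summed level was 17988 CPM in dynamic suspension, 30823 in conventional 3D, 27591 in labelled overexpression, 14699 in labelled knockdown and 24361 in shControl. The 5 fibroblast markers summed to between 3.04 and 73.7 CPM, highest in conventional 3D, the 5 immune markers to between 0.788 and 13.2, highest in dynamic suspension, and the 4 endothelial, 5 epithelial and 3 germ cell markers to at most 10.7, 0.977 and 1.15 CPM. Their part in the results was not tested.

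With 1 library per group there is no spread between samples, no test and no p-value. Every interval below covers counting error only, and a gene is called higher or lower when its log2 ratio is at least log2(1.5) in size, its mean over the 2 libraries is at least 1 CPM and the interval excludes equality. Such a call describes 2 libraries and not the conditions behind them. In bulk RNA, fewer cells expressing a gene and less of its RNA per cell cannot be told apart.

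To show the DNA that the subunit genes carry at their starts, promoter windows of 250 bases before to 50 after the annotated start were taken from RefSeq (GRCm38.p6), which matched 29 of the 36 genes with 31 windows. The core of the antioxidant response element, the site that NRF1 and NRF2 bind, was searched as TGACNNNGC on both strands, N being any base. It was found in 5 of the 31 windows, 16.1%, against 12.4% of all 32851 windows in the table. The genes were Psmb5, Psmb6, Psmc6, Psmd9 and Psmd12. The 4 of them with the highest mean level are shown in the direction of transcription, with the match in capitals, which in Psmc6 and Psmd12 lies on the opposite strand.
Psmb6 (chr11:70525107-70525406, plus strand): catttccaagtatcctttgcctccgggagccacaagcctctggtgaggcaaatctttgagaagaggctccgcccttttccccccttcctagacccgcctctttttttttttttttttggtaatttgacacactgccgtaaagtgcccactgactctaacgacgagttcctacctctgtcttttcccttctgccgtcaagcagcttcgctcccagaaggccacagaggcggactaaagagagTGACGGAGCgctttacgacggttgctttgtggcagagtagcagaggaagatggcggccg
Psmb5 (chr14:54617946-54618245, minus strand): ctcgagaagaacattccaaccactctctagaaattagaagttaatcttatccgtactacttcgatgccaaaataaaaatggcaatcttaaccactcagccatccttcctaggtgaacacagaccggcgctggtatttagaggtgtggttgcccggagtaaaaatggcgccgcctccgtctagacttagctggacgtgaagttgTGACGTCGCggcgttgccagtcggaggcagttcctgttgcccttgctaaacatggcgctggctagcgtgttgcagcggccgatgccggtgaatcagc
Psmc6 (chr14:45329574-45329873, plus strand): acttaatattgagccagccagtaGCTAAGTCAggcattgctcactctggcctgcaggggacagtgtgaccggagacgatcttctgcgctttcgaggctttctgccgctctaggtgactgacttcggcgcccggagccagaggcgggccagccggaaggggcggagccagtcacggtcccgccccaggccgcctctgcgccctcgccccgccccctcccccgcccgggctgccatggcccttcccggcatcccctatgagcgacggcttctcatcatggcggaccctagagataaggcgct
Psmd12 (chr11:107479278-107479577, plus strand): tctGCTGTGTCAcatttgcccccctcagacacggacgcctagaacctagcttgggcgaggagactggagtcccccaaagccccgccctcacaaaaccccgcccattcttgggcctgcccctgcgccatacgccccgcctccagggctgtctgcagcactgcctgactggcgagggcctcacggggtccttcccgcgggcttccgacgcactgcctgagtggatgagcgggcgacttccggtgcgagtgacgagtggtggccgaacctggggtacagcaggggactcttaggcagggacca
Counting the start as position 1, the match began at position -9 in Psmb6, -47 in Psmb5, -227 in Psmc6 and -247 in Psmd12. The CCAAT box was found in 38.7% of the subunit windows and in 37.4% of all windows, and the E-box CACGTG, which reads the same on both strands, in 6.45% and 7.15%. No match of one motif overlapped a match of another in these windows. The subunit shares lay near those of all windows for each of the 3 motifs, a match is a description of the letters and not of a bound site, and where there was none only these letters in this window are described.

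Nearly every constitutive subunit gene was expressed in all 5 libraries. Of the 36 genes, 34 counted as measured, and the lowest of their values in any library was 9.29 CPM, so the filter at 1 CPM removed none of them. Psma8, the alpha subunit of the male germ line, had deposited values of 4 in dynamic suspension, 0 in conventional 3D, 0 in labelled overexpression, 0 in labelled knockdown and 2 in shControl. Psmb11, the catalytic beta subunit of thymic epithelium, had 1, 0, 1, 0 and 2 in the same libraries. A value of 0 allows up to 3 counts, which is 0.0564 CPM in conventional 3D, 0.179 in labelled overexpression and 0.197 in labelled knockdown. Both tissue forms were thus at or near the floor and are left out of the ratios.

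Summed over the 14 measured genes, core particle mRNA was 1268 CPM in dynamic suspension, 1604 in conventional 3D, 1421 in labelled overexpression, 2034 in labelled knockdown and 1971 in shControl. The regulatory particle, over 20 genes, summed to 2897 CPM in dynamic suspension, 3676 in conventional 3D, 2636 in labelled overexpression, 3750 in labelled knockdown and 3896 in shControl. By these sums dynamic suspension and labelled overexpression were the low libraries for both particles, and shControl and labelled knockdown the high ones. For the regulatory particle conventional 3D lay close to labelled knockdown. As a share of all values the core particle made up between 0.126% in dynamic suspension and 0.209% in labelled knockdown, and the regulatory particle between 0.287% in dynamic suspension and 0.403% in shControl. The core share was 0.139% in conventional 3D and 0.155% in labelled overexpression. By share, conventional 3D and not labelled overexpression was thus next to dynamic suspension for the core.

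**Figure D1:**
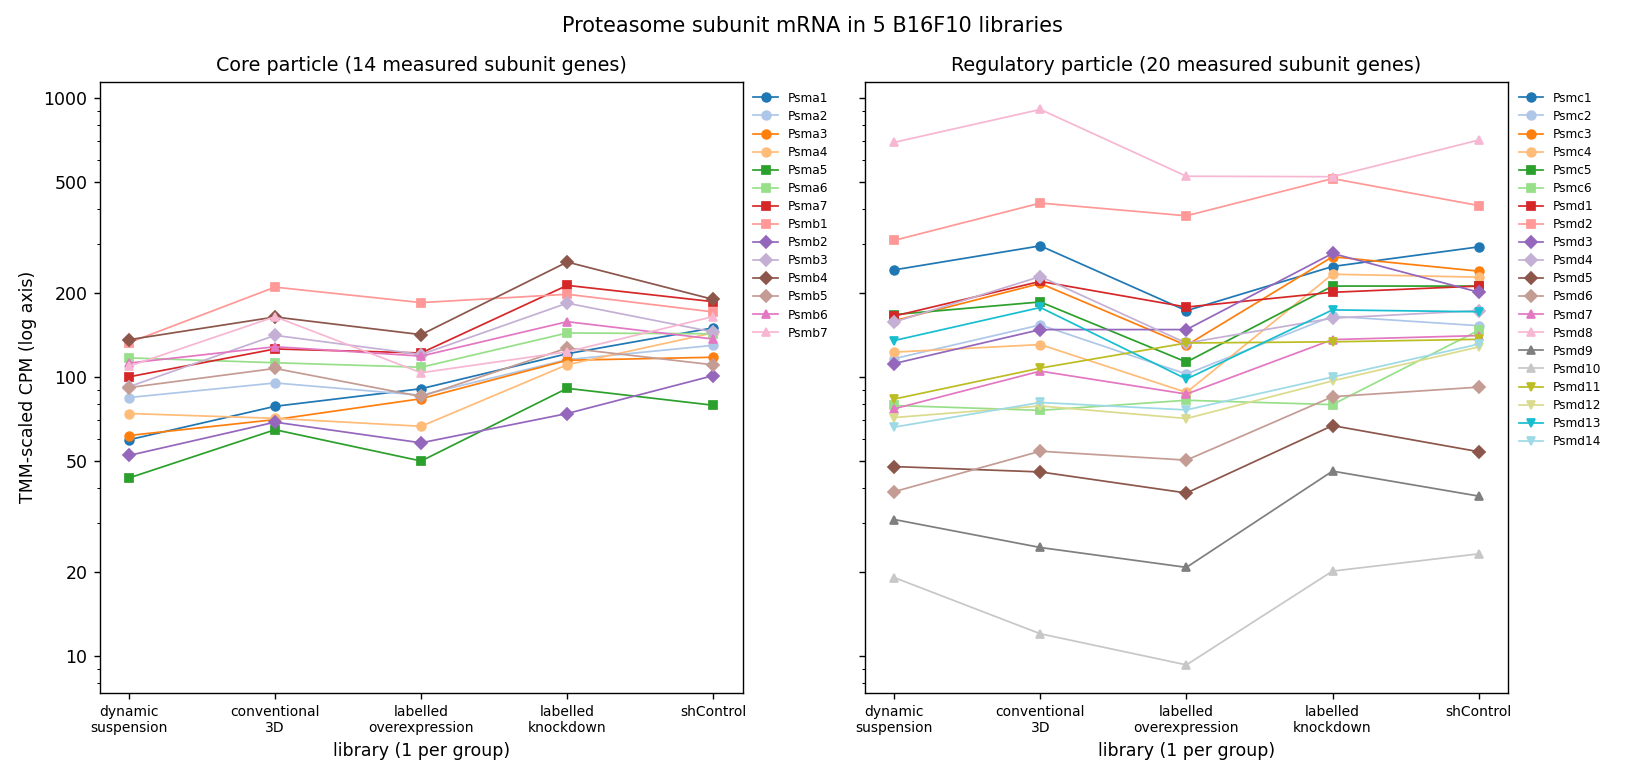
TMM-scaled CPM (log axis) of each measured core gene (left) and regulatory gene (right) in the 5 libraries, 1 point per gene and library, with lines joining the points of a gene. Psmd8 and Psmd2 lie above the other regulatory genes in every library, and most core genes are lowest in dynamic suspension.

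The order of the libraries was examined among the 3 taken as estimated counts, where the inferred kind of value does not differ. shControl was the highest of the 3 for 13 of 14 core genes, the exception being Psmb1, and for 13 of 20 regulatory genes. Over all genes whose mean reached 1 CPM, shControl was the highest for 40.8%. Dynamic suspension was the lowest of the 3 for 12 of 14 core genes and 16 of 20 regulatory genes, against 31.9% of all genes. The core exceptions were Psma4 and Psma6, and the regulatory exceptions were the ATPase gene Psmc6 and the 3 assembly chaperones Psmd5, Psmd9 and Psmd10, all lowest in conventional 3D.

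Dynamic suspension against conventional 3D, the pair of culture methods the study set out to compare, gave lower values in dynamic suspension for 28 of 34 genes, against 51.7% of all measured genes. The differences were small. The median log2 ratio was -0.30 for the core particle and -0.38 for the regulatory particle, beside -0.022 over all 12875 genes measured in the pair and -0.105 over those with a mean of at least 100 CPM. At 1.5-fold, 3 genes were lower, all of the beta ring (Psmb1, Psmb3 and Psmb7), which is 8.82% of the 34 against 16.8% of all measured genes. Psmd10 was called higher, 1 gene against a background of 14.3%, and no member was lower beyond 2-fold, against 7.68%. The shares called were therefore below those of all genes, although most members lay on the same side of 0. Scaling each library to its column total in place of TMM shifts every ratio of this pair by 0.189, which leaves medians of -0.11 for the core particle and -0.19 for the regulatory particle, 0 genes lower at 1.5-fold, against 11.3% of all measured genes, and Psmd10 still higher, against 21.5%. The regulatory median was -0.22 over members with sequence of their own, those with no exon overlapping another gene and under 5% of their stretches of 50 bases found elsewhere. Of the beta genes called lower, Psmb1 is among these members and Psmb3 and Psmb7 are not.

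Dynamic suspension against shControl had the largest shift of the core particle among the 6 comparisons. All 34 genes were lower in dynamic suspension, against 51.2% of all measured genes, with a median log2 ratio of -0.64 for the core particle and -0.40 for the regulatory particle, beside -0.025 over all genes and 0.010 over those of at least 100 CPM. At 1.5-fold, 18 of the 34 were lower (52.9%), 9 in each particle, against 26.6% of all measured genes and 23.2% of those with a mean of at least 100 CPM. None was higher, against a background of 24.7%. Beyond 2-fold, Psma1 and Psmd6 were lower, 2 of the 34 genes, a smaller share than the 14.9% of all measured genes. The alpha family carried 6 of the 9 core calls, with a median log2 ratio of -0.89 beside -0.48 in the beta family. The regulatory median was -0.62 over members with sequence of their own.

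Conventional 3D against shControl gave lower values in conventional 3D for 26 of 34 genes, against 50.4% of all measured genes. The medians were -0.32 for the core particle and -0.29 for the regulatory particle, beside -0.008 over all genes and 0.119 over those of at least 100 CPM. At 1.5-fold, 10 of 34 were lower (29.4%), against 26.6%, and none was higher, against 24.8%. Psma4 alone of the 34 was lower beyond 2-fold, a smaller share than the 14.9% of all measured genes. The rings differed in their values here: the alpha family had a median of -0.56 with 3 genes called lower (Psma1, Psma3 and Psma4), and the beta family a median of -0.04 with none called. This difference between the rings has no test. Scaling by column totals gave medians of -0.57 and -0.55 and 17 genes lower, against 36.4% of all measured genes, and the regulatory median was -0.56 over members with sequence of their own.

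Labelled knockdown against shControl showed the smallest differences. The medians were 0.10 for the core particle and -0.04 for the regulatory particle, beside 0.006 over all genes and 0.151 over those of at least 100 CPM, and 18 of 34 genes were lower in labelled knockdown, against 49.7% of all measured genes. Psmc6 alone was called lower at 1.5-fold, against a background of 25.1%, and none was higher, against 20.2%. No member was lower beyond 2-fold, against 15.6%. The sign of the regulatory median turned with DESeq2 size factors, to 0.01, and over members with sequence of their own it was -0.10.

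Labelled overexpression against shControl had the lowest regulatory median. Of the 34 genes, 33 were lower in labelled overexpression, against 50.7% of all measured genes, and the medians were -0.54 for the core particle and -0.77 for the regulatory particle, beside -0.020 over all genes and -0.047 over those of at least 100 CPM. At 1.5-fold, 19 were lower (55.9%), 7 in the core and 12 in the regulatory particle, against 30.1% of all measured genes and 28.4% of those with a mean of at least 100 CPM. None was higher, against 26.8%. Psma4, Psmc4 and Psmd10 were lower beyond 2-fold, 3 of the 34 genes, a smaller share than the 20.1% of all measured genes. The 6 ATPase genes had a median of -0.86 with 5 called lower, and the 7 beta genes a median of -0.38 with 2 called lower.

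Labelled overexpression against labelled knockdown compares the pair of plain-count libraries. In labelled overexpression 32 of 34 genes were lower, against 51.0% of all measured genes. The medians were -0.44 for the core particle and -0.67 for the regulatory particle, beside -0.026 over all genes and -0.217 over those of at least 100 CPM. At 1.5-fold, 16 were lower (47.1%), 5 in the core and 11 in the regulatory particle, against 26.7% of all measured genes and 31.2% of those with a mean of at least 100 CPM. None was higher, against 27.6%. Psmc3, Psmc4, Psmd9 and Psmd10 were lower beyond 2-fold, 4 of the 34 genes, a smaller share than the 14.8% of all measured genes. The 6 comparisons share libraries, with shControl in 4 of them, so their values stand side by side and are not independent.

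**Figure D2:**
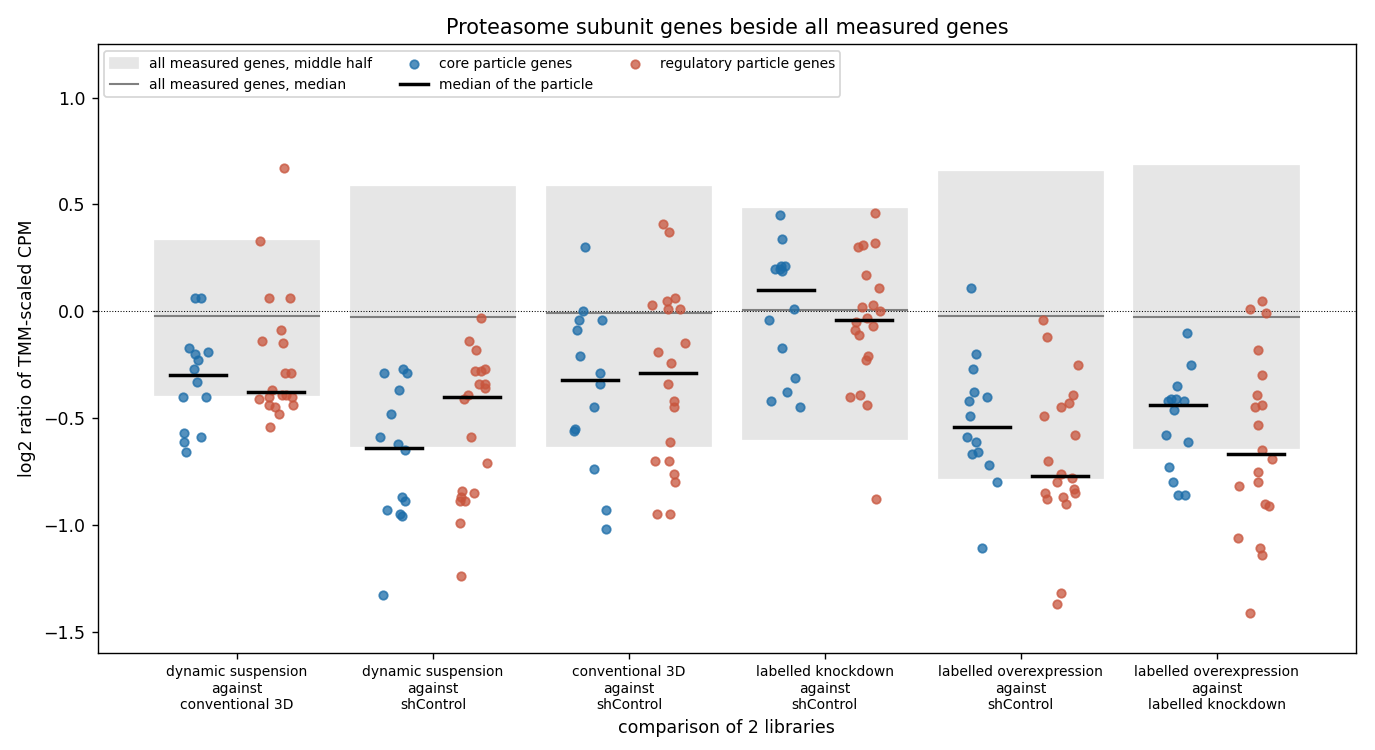
log2 ratio of TMM-scaled CPM in the 6 comparisons, 1 point per measured gene, with black bars for the median of each particle and grey boxes from the lower to the upper quartile of all measured genes. Every point of dynamic suspension against shControl lies below 0, and the medians of labelled knockdown against shControl lie near 0, at 0.10 and -0.04.

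The alpha subunits form the gate of the barrel and the surface on which the regulatory particle docks. Psma1 was at 59.6 CPM in dynamic suspension, 78.6 in conventional 3D, 90.9 in labelled overexpression, 121 in labelled knockdown and 150.2 in shControl. Its log2 ratio of -1.33 (95% counting interval -1.39 to -1.28) in dynamic suspension against shControl was the lowest of any member in that comparison. shControl was the highest library and dynamic suspension the lowest. Psma4 was at 74.0 CPM in dynamic suspension, 71.1 in conventional 3D, 66.6 in labelled overexpression, 111 in labelled knockdown and 144 in shControl. It was lower beyond 2-fold in conventional 3D against shControl (-1.02, interval -1.07 to -0.96) and in labelled overexpression against shControl (-1.11, -1.20 to -1.02), and it hardly differed between the culture methods (0.06, -0.01 to 0.12).

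Psma5 was at 43.5 CPM in dynamic suspension, 64.8 in conventional 3D, 50.0 in labelled overexpression, 91.2 in labelled knockdown and 79.3 in shControl, and its ratio of -0.86 in labelled overexpression against labelled knockdown was, with that of Psmb4, the lowest of the core. Psma6 varied least of the alpha genes, with 117 CPM in dynamic suspension, 113 in conventional 3D, 108 in labelled overexpression, 144 in labelled knockdown and 143 in shControl. It was called in none of the 6 comparisons. The other measured alpha genes, Psma2, Psma3 and Psma7, lay between 84.5 and 130.0 CPM, 61.7 and 118 CPM, and 100.2 and 213 CPM, each lowest in dynamic suspension. Psma3 has a pseudogene copy, Gm13835 on chromosome 6, whose stretches of 50 bases all occur in Psma3 as well. The copy was listed at 23.9 CPM in dynamic suspension, 30.9 in conventional 3D, 48.8 in labelled overexpression, 65.3 in labelled knockdown and 48.4 in shControl, so how reads divide between them is uncertain. The same holds for Psma5, of whose stretches of 50 bases 50.0% occur in another gene. Its pseudogene copies Gm12989 and Gm8394 lay between 3.22 and 5.71 CPM and between 3.86 and 10.2 CPM.

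The beta ring holds the active sites. Psmb5, the chymotrypsin-like subunit that bortezomib binds, was at 91.7 CPM in dynamic suspension, 107 in conventional 3D, 85.2 in labelled overexpression, 127 in labelled knockdown and 111 in shControl. Psmb6, the caspase-like subunit, was at 112 CPM in dynamic suspension, 129 in conventional 3D, 119 in labelled overexpression, 158 in labelled knockdown and 137 in shControl. Neither gene was called in any of the 6 comparisons, and in dynamic suspension against shControl they were among the core ratios nearest 0, at -0.27 (-0.32 to -0.22) for Psmb5 and -0.29 (-0.33 to -0.24) for Psmb6. Psmb7, the trypsin-like subunit, was at 109 CPM in dynamic suspension, 165 in conventional 3D, 104 in labelled overexpression, 123 in labelled knockdown and 165 in shControl. It was lower at 1.5-fold in dynamic suspension against conventional 3D (-0.59, -0.64 to -0.54), dynamic suspension against shControl (-0.59, -0.64 to -0.55) and labelled overexpression against shControl (-0.67, -0.74 to -0.60). The catalytic genes thus did not share a pattern. Exons of Psmb7 overlap those of Nek6 over 405 bp, and Nek6 was at 39.9 CPM in dynamic suspension, 55.8 in conventional 3D, 60.8 in labelled overexpression, 87.8 in labelled knockdown and 117 in shControl. Of the stretches of 50 bases in Psmb5, 54.1% occur in another gene, so how its reads were divided is uncertain. Its pseudogene copy Gm3375 lay between 1.91 and 3.50 CPM.

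The other beta subunits are structural. Psmb1 was at 133 CPM in dynamic suspension, 210.2 in conventional 3D, 185 in labelled overexpression, 198 in labelled knockdown and 171 in shControl. It was the core gene that stood furthest below conventional 3D in dynamic suspension (-0.66, -0.70 to -0.62), and it had the highest core ratio in conventional 3D against shControl (0.30) and in labelled overexpression against shControl (0.11). Psmb3 was at 92.4 CPM in dynamic suspension, 141 in conventional 3D, 121 in labelled overexpression, 184 in labelled knockdown and 145 in shControl, and its ratio between the culture methods was -0.61 (-0.66 to -0.56). Of its stretches of 50 bases 17.8% occur in another gene, so how its reads were divided is uncertain. Its pseudogene copies AC114990.1 and Gm4950 lay between 2.50 and 7.79 CPM and between 1.49 and 4.25 CPM. Psmb4, at 136 CPM in dynamic suspension, 164 in conventional 3D, 142 in labelled overexpression, 259 in labelled knockdown and 189.9 in shControl, had the highest core ratio in labelled knockdown against shControl, 0.45, below the 1.5-fold line. Psmb2 was at 52.4 CPM in dynamic suspension, 68.9 in conventional 3D, 58.1 in labelled overexpression, 74.0 in labelled knockdown and 101 in shControl. It was the reverse case, with the lowest core ratio in labelled knockdown against shControl (-0.45, -0.54 to -0.36).

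The ATPases unfold the substrate and open the gate. Psmc4 was at 123 CPM in dynamic suspension, 131 in conventional 3D, 88.1 in labelled overexpression, 234 in labelled knockdown and 228 in shControl. It had the lowest ratio of all members in labelled overexpression, both against shControl (-1.37, -1.45 to -1.30) and against labelled knockdown (-1.41, -1.50 to -1.32). Labelled knockdown and shControl lay close together and the other libraries well below them. Psmc4 lies at chr7:28041707-28050101 on the minus strand (GRCm38) and shares no sequence of 50 bases with another gene.

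Psmc6 was at 79.1 CPM in dynamic suspension, 76.0 in conventional 3D, 82.6 in labelled overexpression, 79.7 in labelled knockdown and 147 in shControl. The 4 libraries other than shControl lay within 76.0 to 82.6 CPM, and the log2 ratio against shControl was -0.89 in dynamic suspension, -0.95 in conventional 3D, -0.83 in labelled overexpression and -0.88 (-0.97 to -0.80) in labelled knockdown. It was the sole member called in labelled knockdown against shControl, and all 4 ratios rest on the same shControl value. The gene lies at chr14:45329788-45349705 on the plus strand, and its promoter window is among those shown above. The other ATPase genes, Psmc1, Psmc2, Psmc3 and Psmc5, lay between 103 and 296 CPM over the 5 libraries and were each lowest in labelled overexpression, at 173, 103, 130.0 and 113 CPM. Psmc3 was lower there beyond 2-fold against labelled knockdown (-1.06, -1.13 to -0.98).

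Of the non-ATPase genes, Psmd2 encodes a scaffold subunit that receives ubiquitin-like domains, Psmd4 a ubiquitin receptor and Psmd14 the deubiquitinase. Psmd2 was at 309 CPM in dynamic suspension, 421 in conventional 3D, 379 in labelled overexpression, 515 in labelled knockdown and 412 in shControl. Psmd4 was at 158 CPM in dynamic suspension, 229 in conventional 3D, 132 in labelled overexpression, 163 in labelled knockdown and 173 in shControl. It had the highest regulatory ratio in conventional 3D against shControl (0.41, 0.37 to 0.44) and the lowest in dynamic suspension against conventional 3D (-0.54, -0.58 to -0.50). Psmd14 was at 66.2 CPM in dynamic suspension, 81.1 in conventional 3D, 76.3 in labelled overexpression, 100.02 in labelled knockdown and 131 in shControl. The deubiquitinase gene was thus lower than in shControl in each of the 4 libraries, with ratios of -0.99, -0.70, -0.78 and -0.39, the last of which was not called.

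The remaining lid genes are structural. Psmd6 was at 38.8 CPM in dynamic suspension, 54.2 in conventional 3D, 50.4 in labelled overexpression, 85.1 in labelled knockdown and 92.1 in shControl, and its ratio of -1.24 (-1.32 to -1.18) was the lowest of the regulatory particle in dynamic suspension against shControl. Psmd3 was at 112 CPM in dynamic suspension, 148 in conventional 3D, 148 in labelled overexpression, 278 in labelled knockdown and 202 in shControl, with the highest regulatory ratio in labelled knockdown against shControl (0.46, 0.41 to 0.51). Psmd11 was at 83.4 CPM in dynamic suspension, 108 in conventional 3D, 133 in labelled overexpression, 134 in labelled knockdown and 137 in shControl. Labelled overexpression did not stand low for this gene, with ratios of -0.04 against shControl and -0.01 against labelled knockdown.

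Psmd8, a lid subunit needed late in lid assembly, departed from the rest. It was at 695 CPM in dynamic suspension, 912 in conventional 3D, 525 in labelled overexpression, 523 in labelled knockdown and 708 in shControl. The plain-count libraries were its low ones, and dynamic suspension differed from shControl by -0.03 (-0.05 to -0.01). Psmd1, Psmd7, Psmd12 and Psmd13, the other subunits of the base and lid, lay between 71.0 and 220.4 CPM. Psmd7 and Psmd12 were called lower in dynamic suspension against shControl (-0.87 and -0.84) and in labelled overexpression against shControl (-0.70 and -0.85). Psmd7 was also called lower in labelled overexpression against labelled knockdown, and Psmd12 in conventional 3D against shControl. Psmd13 was called lower in both comparisons of labelled overexpression, and Psmd1 in none.

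The assembly chaperones help to build the ATPase ring and leave it when it is complete. Psmd10, also known as gankyrin, was at 19.1 CPM in dynamic suspension, 12.0 in conventional 3D, 9.29 in labelled overexpression, 20.1 in labelled knockdown and 23.2 in shControl. Alone among the members it was called higher at 1.5-fold in dynamic suspension against conventional 3D (0.67, 0.53 to 0.81), and it was lower beyond 2-fold in labelled overexpression against shControl (-1.32, -1.57 to -1.08). Psmd9 was at 30.9 CPM in dynamic suspension, 24.5 in conventional 3D, 20.8 in labelled overexpression, 46.0 in labelled knockdown and 37.4 in shControl, with 0.33 between the culture methods and -1.14 (-1.34 to -0.96) in labelled overexpression against labelled knockdown. Exons of Psmd9 overlap another gene over 1849 bp and 24.9% of its stretches of 50 bases occur elsewhere, so how its reads were divided is uncertain. Psmd5 lay between 38.4 and 67.0 CPM, highest in labelled knockdown, and was called lower in labelled overexpression against labelled knockdown (-0.80). Without these 3 genes the regulatory median was -0.59 in dynamic suspension against shControl and -0.19 in conventional 3D against shControl, whereas it was -0.76 in labelled overexpression against shControl and -0.05 in labelled knockdown against shControl, an alternative chosen after seeing the data.

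Levels were compared between genes per kilobase of the principal transcript. Psmd8 was the highest of the 34 genes in every library, at 451 CPM per kilobase in dynamic suspension, 592 in conventional 3D, 341 in labelled overexpression, 339.8 in labelled knockdown and 459.6 in shControl. This was 7.01 times the median gene in dynamic suspension, 7.11 in conventional 3D, 5.29 in labelled overexpression, 3.47 in labelled knockdown and 4.27 in shControl. The next gene was 2.96, 3.19, 2.17, 1.41 and 2.25 times lower in those libraries. Psmd8 (chr7:29174188-29180701, minus strand) was also the highest when the length of all its exons was used, and it shares no sequence of 50 bases with another gene. Psmd5, Psmd9 and Psmd10 were the lowest 3 genes per kilobase in every library, between 6.50 and 17.7.

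**Figure D3:**
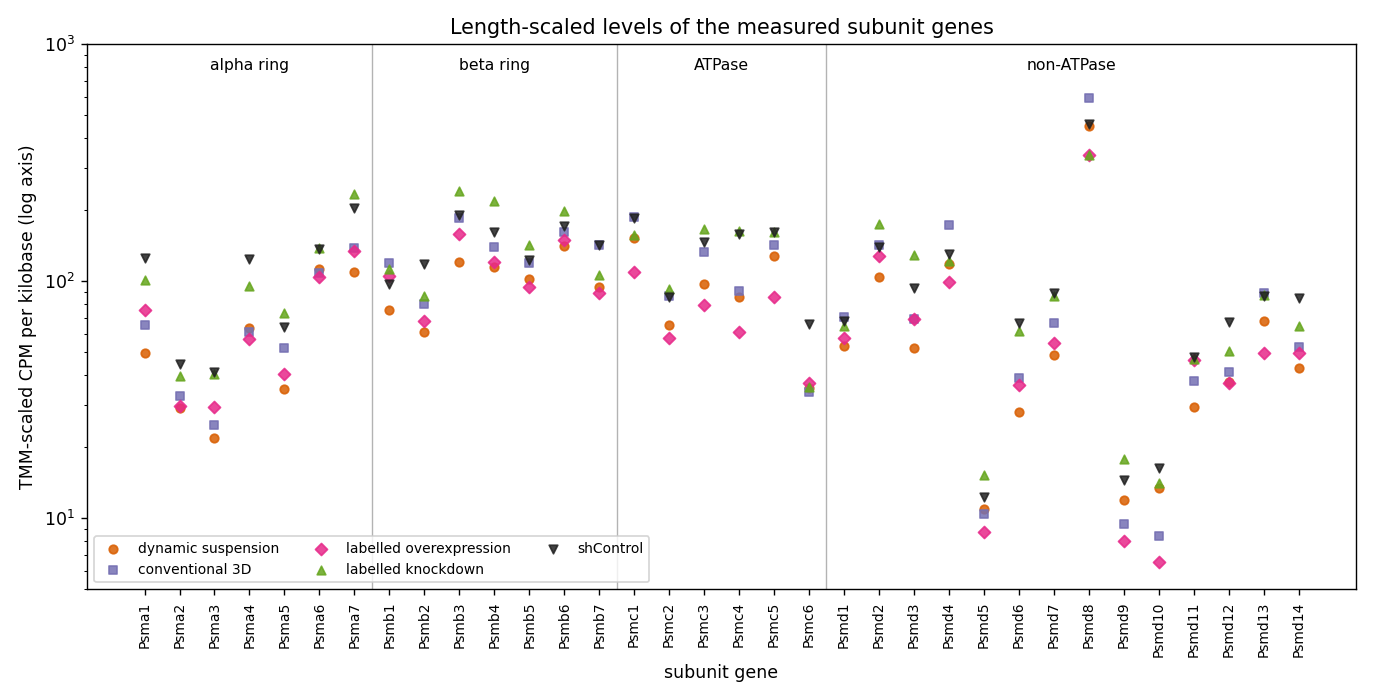
TMM-scaled CPM per kilobase of the principal transcript (log axis) for the 34 measured genes, 1 point per library, in the order of the rings and particles. Psmd8 is the highest gene in each library and Psmd5, Psmd9 and Psmd10 the lowest.

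Genes around the proteasome did not all have the direction of the subunits. The lists were chosen with results of these data known, and the shares of all measured genes called at 1.5-fold are given beside their counts. No test was run on the lists. Of 6 assembly chaperones of the core particle and base, 5 were measured: Psmg1, Psmg2, Psmg3, Psmg4 and Pomp, all of the core particle. Paaf1, of the base, was not found among the genes by its symbol, so the counts below do not cover the base. In dynamic suspension against shControl 3 of the 5 were lower, against 26.6% of all measured genes. All 5 were lower in conventional 3D against shControl, against 26.6%. In labelled overexpression against shControl 3 were lower, against 30.1%, and in labelled overexpression against labelled knockdown 3, against 26.7%. None was higher in these comparisons, against 24.7%, 24.8%, 26.8% and 27.6% of all measured genes. In labelled knockdown against shControl 2 were lower and 1 higher, against 25.1% and 20.2% of all measured genes. Between the culture methods none was called, against 16.8% lower and 14.3% higher. Psmg1, which with Psmg2 helps build the alpha ring, was at 13.1 CPM in dynamic suspension, 16.5 in conventional 3D, 12.1 in labelled overexpression, 32.4 in labelled knockdown and 27.6 in shControl. Pomp, the maturation protein of the beta ring, was at 101 CPM in dynamic suspension, 68.1 in conventional 3D, 64.1 in labelled overexpression, 91.4 in labelled knockdown and 138 in shControl.

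Psmb10, an inducible gene of the core, and the activator genes Psme1 and Psme2 went the other way against shControl in the culture libraries. Psmb10, the inducible counterpart of Psmb7, was at 31.7 CPM in dynamic suspension, 27.2 in conventional 3D, 8.22 in labelled overexpression, 14.96 in labelled knockdown and 11.5 in shControl, with log2 ratios of 1.46 and 1.24 for dynamic suspension and conventional 3D against shControl. Psme2, a subunit of the PA28 activator, was at 65.3 CPM in dynamic suspension, 58.3 in conventional 3D, 16.3 in labelled overexpression, 10.1 in labelled knockdown and 19.6 in shControl, and its partner Psme1 at 107, 151, 71.7, 53.6 and 54.3 CPM in the same libraries. Both culture libraries were the highest for all 3 of these genes. Of the 5 activator and inhibitor genes, which also hold Psme3, Psme4 and Psmf1, 2 were called higher in dynamic suspension against shControl. In conventional 3D against shControl 2 were higher, and none was lower in either comparison. Over all measured genes 24.7% and 24.8% were called higher in these comparisons, and 26.6% lower in each. In labelled knockdown against shControl and in labelled overexpression against shControl 1 was lower and none higher. In labelled overexpression against labelled knockdown 2 were lower and 1 higher, and between the culture methods none was called. The shares of all measured genes called lower in these comparisons were 25.1%, 30.1%, 26.7% and 16.8%. Those called higher were 20.2%, 26.8%, 27.6% and 14.3%. The summed immune markers were also highest in the culture libraries, at 13.2 CPM in dynamic suspension, 12.5 in conventional 3D, 8.40 in labelled overexpression, 0.788 in labelled knockdown and 3.56 in shControl. Nearly all of that was Cd68, while Cd3e and Itgam were at 0 in every library and Ptprc in all but conventional 3D, where it was 0.150 CPM, and the part of such cells was not tested. Psmb8 and Psmb9, the other inducible core genes, were at or below 2.07 CPM in every library, so the values of the core rest on Psmb10. Psmb8 (0.97) and Psmb9 (1.60) were called higher in dynamic suspension against conventional 3D, and Psmb9 (2.43) in dynamic suspension against shControl. Psme1, Psme2, Psmb8 and Psmb9 are not among the genes with sequence of their own.

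Of 14 factors that associate with the proteasome, all were measured. In dynamic suspension against shControl 4 were lower and 1 higher, against 26.6% and 24.7% of all measured genes. In labelled overexpression against shControl 4 were lower and 2 higher, against 30.1% and 26.8%. In labelled knockdown against shControl 1 was lower and 4 were higher, against 25.1% and 20.2%. The numbers were 2 and 2 in conventional 3D against shControl, against 26.6% and 24.8%. They were 2 and 1 in labelled overexpression against labelled knockdown, against 26.7% and 27.6%. In dynamic suspension against conventional 3D they were 2 and 0, against 16.8% and 14.3%. Sem1 and Adrm1 encode integral subunits of the regulatory particle whose symbols fall outside the naming rule. Sem1 was at 88.3 CPM in dynamic suspension, 81.6 in conventional 3D, 121 in labelled overexpression, 164 in labelled knockdown and 187 in shControl. Adrm1, a ubiquitin receptor, was at 76.8 CPM in dynamic suspension, 141 in conventional 3D, 122 in labelled overexpression, 167 in labelled knockdown and 123 in shControl, a difference of -0.87 between the culture methods. Uchl5, the deubiquitinase that Adrm1 holds, was at 18.2 CPM in dynamic suspension, 22.0 in conventional 3D, 19.8 in labelled overexpression, 22.0 in labelled knockdown and 43.2 in shControl, called lower in all 4 comparisons with shControl.

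Among 14 genes of the NRF1 and NRF2 pathway, 13 were measured. In dynamic suspension against shControl 7 were higher and none lower, against 24.7% and 26.6% of all measured genes. In conventional 3D against shControl 6 were higher and 1 lower, against 24.8% and 26.6%. In labelled overexpression against shControl 7 were higher and 1 lower, against 26.8% and 30.1%. The numbers were 4 higher and 2 lower in labelled knockdown against shControl, against 20.2% and 25.1%. They were 6 and 1 in labelled overexpression against labelled knockdown, against 27.6% and 26.7%. In dynamic suspension against conventional 3D they were 4 and 2, against 14.3% and 16.8%. Nfe2l1 was at 811 CPM in dynamic suspension, 647 in conventional 3D, 675 in labelled overexpression, 407 in labelled knockdown and 295 in shControl, so the libraries where the subunit sums were lowest were not those where its mRNA was lowest. Nfe2l2, which encodes NRF2, was at 157 CPM in dynamic suspension, 92.3 in conventional 3D, 72.0 in labelled overexpression, 135 in labelled knockdown and 228 in shControl. The 4 subunit genes whose promoters are shown above had log2 ratios of -0.29 (Psmb6), -0.27 (Psmb5), -0.89 (Psmc6) and -0.84 (Psmd12) in dynamic suspension against shControl. Hmox1, a known target of both factors, was at 471 CPM in dynamic suspension, 64.3 in conventional 3D, 213 in labelled overexpression, 74.2 in labelled knockdown and 46.4 in shControl. Other genes of the list did not share its difference between the culture methods. In dynamic suspension and conventional 3D, Nqo1 was at 3.71 and 15.4 CPM, the other way. Gclm was at 56.5 and 49.1 CPM in these libraries, and Sqstm1 at 1919 and 1804. mRNA levels do not show how much active NRF1 or proteasome the cells held, which was not measured here.

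**Figure D4:**
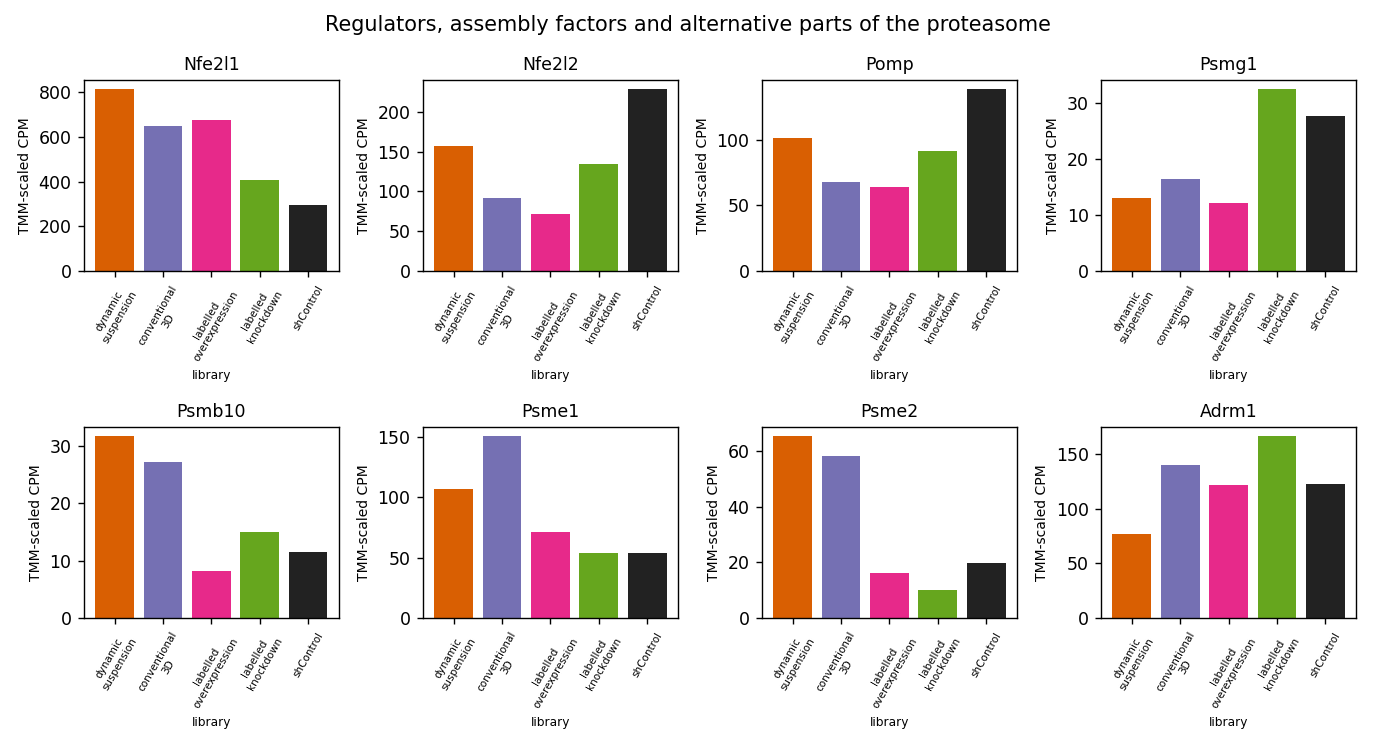
TMM-scaled CPM (bars from 0, each panel with its own scale) of 8 genes around the proteasome in the 5 libraries, 1 library per bar and so without an error bar. Nfe2l1, Psmb10 and Psme2 are highest in dynamic suspension, whereas Pomp and Nfe2l2 are highest in shControl and Psmg1 and Adrm1 in the library labelled knockdown.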

How the data were processed

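Poly(A)-selected RNA of 5 B16F10 libraries, 1 per group, was measured as strand-specific paired reads of 150 bp. The deposited table gives 1 value per Ensembl gene. By their pattern, the values were taken as plain counts for the libraries labelled overexpression and knockdown. Those of dynamic suspension, conventional 3D and shControl were taken as estimated counts, because they pile up at 4 and 8 (811 genes at 4 against 482 at 3 in shControl). The submitters' processing notes name cutadapt, HISAT2, StringTie, GRCm38.p6 and mm10. Which program counted the reads, and with which annotation, is not given in the sources used here. All 54100 identifiers matched GENCODE M21, and 0 sample columns were left unused.

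Libraries were scaled by TMM with edgeR 4.0.16 in R 4.3.3 over all 5 libraries. Estimated counts were whole numbers as deposited and were used without rounding. The log2 ratio of CPM used a prior count of 2. The 95% interval is the exact conditional (Clopper-Pearson) interval of 2 counts and may be too narrow for estimated counts. The scripts were tested on simulated data. Levels per kilobase used the longest principal transcript. A gene has its own sequence when no exon overlaps another gene and under 5% of its 50-base words occur in another: 22 of 36 members do. Copies are pseudogenes that share at least 50 words and 10% of their own, 13 copies of 9 members. Every member is named; values in all libraries are given for Psmb5, Psmb6, Psmb7, Psma8, Psmb11, Hif1a and the 2 highest and 2 lowest ratios per comparison and particle (mean at least 10 CPM). Members, lists, motifs and this rule were chosen with earlier results of these data known. Alternatives were DESeq2 1.42.0 size factors, column totals, a prior of 0.5, a 10 CPM filter, a 2-fold call, own-sequence members and copies added.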

Additional observations from a re-analysis of the deposited data

How the results depend on the processing

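The medians are given as core then regulatory particle. Scaling by column totals gave -0.11 and -0.19 for dynamic suspension against conventional 3D, -0.70 and -0.47 for dynamic suspension against shControl, -0.57 and -0.55 for conventional 3D against shControl, -0.47 and -0.70 for labelled overexpression against shControl, and -0.36 and -0.58 for labelled overexpression against labelled knockdown. This scaling shifts the median of all genes by 0.189 and -0.253 in the 2 comparisons with conventional 3D and by less than 0.1 elsewhere. In those 2 comparisons the members called numbered 1 and 17 under it, an alternative for the calls chosen after seeing the data, and elsewhere neither scaling moved the number by over 1.5 times. DESeq2 size factors turned the regulatory median of labelled knockdown against shControl to 0.01, and gave 0.15 for its core, -0.39 for the regulatory particle in dynamic suspension against shControl, -0.30 and -0.27 in conventional 3D against shControl, -0.52 and -0.75 in labelled overexpression against shControl, and -0.69 for the regulatory particle in labelled overexpression against labelled knockdown. The cause of these moves was not tested beyond the shift itself.

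With own-sequence members alone the values were -0.22 (regulatory, dynamic suspension against conventional 3D), -0.55 and -0.62 (dynamic suspension against shControl), -0.40 and -0.56 (conventional 3D against shControl), -0.10 (regulatory, labelled knockdown against shControl), -0.51 and -0.81 (labelled overexpression against shControl) and -0.41 (core, labelled overexpression against labelled knockdown), from fewer genes. Adding copies gave core medians of -0.65 for dynamic suspension, 0.15 for labelled knockdown and -0.51 for labelled overexpression, each against shControl. Leaving out Psmd5, Psmd9 and Psmd10, chosen after seeing the data, gave regulatory medians of -0.39 for dynamic suspension against conventional 3D, -0.59 and -0.19 for dynamic suspension and conventional 3D against shControl, and -0.53 for labelled overexpression against labelled knockdown. At 2-fold the members called numbered 0, 2, 1, 0, 3 and 4 in the order of the comparisons in the report. The prior of 0.5 and the 10 CPM filter, run for the medians, moved none beyond its counting interval. Counting intervals with estimated counts divided by 4, run for the calls, moved no count by over 1.5 times.

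No paired analysis was possible because each group has 1 library, and for the same reason no library was left out. Depth does not limit the members, but 1 pooled library per group gives no spread between cultures. The labelled libraries differ from shControl in the inferred kind of value as well as in the group. The knockdown label goes against Hif1a, and estimated counts make the intervals approximate.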

Other observations

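Of 9 genes of ubiquitin supply and extraction, all were measured. In labelled knockdown against shControl 2 were higher and 4 lower, against 20.2% and 25.1% of all measured genes. Uba1 was at 972 CPM in labelled knockdown and 592 in shControl. Uba6, a ubiquitin-activating enzyme, was at 28.3 CPM in dynamic suspension, 25.2 in conventional 3D, 27.7 in labelled overexpression, 6.69 in labelled knockdown and 15.1 in shControl. Labelled knockdown was the lowest library for Uba6 and dynamic suspension the highest. Of the 9 genes, 1 was higher and 1 lower in dynamic suspension against shControl, against 24.7% and 26.6%. The numbers were 3 and 1 in conventional 3D against shControl, against 24.8% and 26.6%. They were 1 and 4 in labelled overexpression against shControl, against 26.8% and 30.1%. In labelled overexpression against labelled knockdown they were 2 and 2, against 27.6% and 26.7%. Between the culture methods they were 1 and 1, against 14.3% and 16.8%.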
